A study of Rattus norvegicus with 6 samples.

Results

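The Serpina genes encode the clade A serpins, most of which are secreted by hepatocytes into plasma. From the list of Serpina1, Serpina3c, Serpina3m, Serpina3n, Serpina4, Serpina6, Serpina11 and Serpina12, all probes of the rat liver arrays whose accession, without its version, belongs to one of these genes in RefSeq were taken. This gave 9 probes for 7 of the 8 genes, among 15284 named genes with a probe. No probe matched Serpina3m, which is not analysed here. The single probe of Serpina12 stayed at background throughout, so 6 genes were tested.

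The livers came from male Sprague-Dawley (Crl:CD(SD)) rats, bought at 5 weeks of age. Of these, 3 received BBMP, the flame retardant 2,2-bis(bromomethyl)-1,3-propanediol, at 1000 mg/kg/day, and 3 received corn oil, with 1 array per animal. The labels give the time as 28 days in one place and as 9 weeks of administration in another. Each value below is the log2 of the processed spot brightness relative to that array's 75th percentile, and a difference is BBMP minus corn oil on this scale unless a percentage of the linear signal is named. The BBMP arrays shared one slide and scan and the corn oil arrays shared a different one, so every difference below is one of slide and scan too, and these cannot be told apart from the treatment. Of 6 hepatocyte markers, among them Alb, Ttr and Cps1, all 6 were well above background on every array. Most probes were too, so this alone does not tell liver from another tissue. A mean log2 value of 8 or more was reached by 4 of the 6, and by 282 of the 28112 features tested. Between 60.1% and 64.4% of 61573 probes were well above background per array, and with 3 arrays a group the precision is low.

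A serpin inhibits its protease as bait: the protease cuts an exposed loop, the serpin springs into a new shape, and the pair stays locked together. Serpina1 (alpha-1-antitrypsin) restrains neutrophil elastase in this way, whereas Serpina6 (corticosteroid-binding globulin) keeps the fold but carries glucocorticoid in blood. In rodents the Serpina3 gene has multiplied into a row of similar copies. Liver transcription of rat Serpina3 genes is a classic target of growth hormone, which acts through the factor STAT5, and members of the group also respond to inflammation.

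The promoter windows of Serpina3n and Serpina11 are shown because both hold the palindrome that STAT factors bind. They are RefSeq sequences of build GRCr8, each 300 bases long and spanning the annotated start, 5′ to 3′ on the gene's own strand. Capitals mark that palindrome, TTCNNNGAA, searched on both strands.
Serpina3n, chr6:129088142-129088441, plus strand: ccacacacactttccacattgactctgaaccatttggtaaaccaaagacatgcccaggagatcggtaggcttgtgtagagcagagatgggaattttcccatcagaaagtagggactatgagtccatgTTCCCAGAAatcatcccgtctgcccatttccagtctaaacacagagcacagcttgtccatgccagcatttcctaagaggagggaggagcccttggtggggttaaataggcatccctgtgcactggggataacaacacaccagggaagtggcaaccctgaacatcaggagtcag
Serpina11, chr6:128677405-128677704, minus strand: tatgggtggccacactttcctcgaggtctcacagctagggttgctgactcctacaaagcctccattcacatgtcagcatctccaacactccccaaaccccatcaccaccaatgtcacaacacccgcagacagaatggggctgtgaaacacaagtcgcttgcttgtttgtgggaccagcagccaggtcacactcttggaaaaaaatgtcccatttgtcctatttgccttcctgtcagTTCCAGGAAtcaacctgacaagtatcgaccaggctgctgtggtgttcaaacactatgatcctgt
Relative to the annotated start, the STAT palindrome began at base -123 in Serpina3n and at base -14 in Serpina11. Among all 33469 promoter windows, TTCNNNGAA was in 8.87%. Windows were given for 6 of the listed genes, and Serpina1, Serpina3m, Serpina4 and Serpina12 did not hold it. The palindrome TTGCGCAA of C/EBP factors, present in 0.17% of all windows, was in none of the 6. GTTAAT, the half-site of HNF1 factors, was in 7.45% of all windows and in 1 of the 6. This was Serpina4, where it began at base -77.

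Some Serpina3 copies can be lined up over the STAT palindrome. The 27-base windows below are the best ungapped match to Serpina3n in the 2 copies most like it there, with the 9 aligned core bases in capitals. Serpina3a and Serpina3j, with 18 and 14 of the 27 bases the same and 3 core substitutions each, are not shown. Elsewhere in its promoter window Serpina3a did hold TTCNNNGAA, beginning at base -175. No promoter window was given for Serpina3c.
Serpina3n, chr6:129088260-129088286, plus strand: gagtccatgTTCCCAGAAatcatcccg
Serpina3m, chr6:128836951-128836977, minus strand: gaatccatgTTACCAGAAatcatcccg
Serpina3l, chr6:129063068-129063094, plus strand: taatccatgTTCTGAGAAatcatccag
Counted from 1 at the first capital, with the base of Serpina3n first, the core of Serpina3m carried C3A, which removes the match to TTCNNNGAA. The core of Serpina3l carried C4T and C5G, both inside the spacer, and still matched. Of the 27 bases, 25 in Serpina3m and 22 in Serpina3l were the same as in Serpina3n. A match is a description of letters, not of binding.

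Differences between BBMP and corn oil livers were small in every Serpina gene measured, and 0 of 6 passed limma's adjusted p of 0.05 (0.00711% of 28112 features did). The point estimates were below 0 for 5 genes and above 0 for 1, with a median of -0.16, where 52.5% of all features were below 0 and their median was -0.01. Serpina11, Serpina3c and Serpina1 were lower in every BBMP liver than in every corn oil liver, and Serpina4, encoding kallistatin, was higher in every BBMP liver. Over all features the groups of 3 did not overlap in 17.9%, with the BBMP group lower in 9.6% and higher in 8.25%. Serpina3n and Serpina6 overlapped between the groups. At an unadjusted limma p under 0.05 stood 1 of the 6 genes, Serpina11, which was lower in BBMP livers. Of all features 10.8% did, 6.1% lower and 4.7% higher in BBMP livers.

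**Figure D1:**
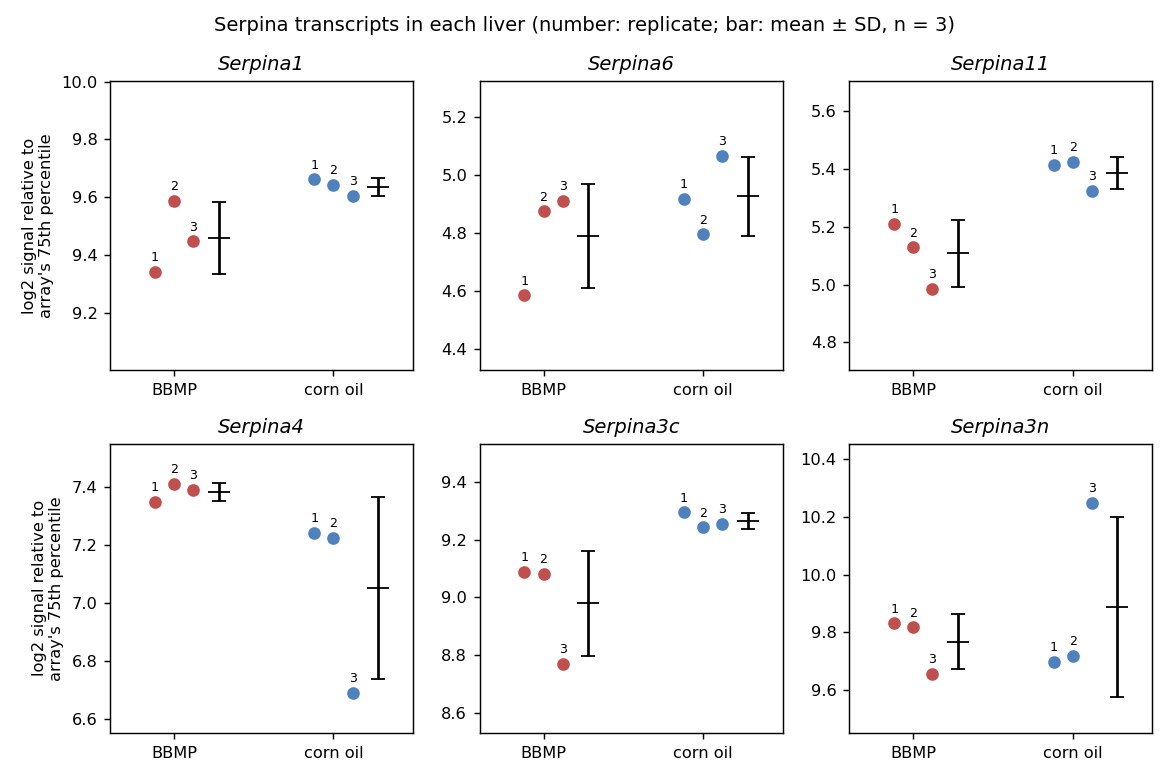
Log2 signal relative to each array's 75th percentile (y axis, every panel spanning the same log2 range) in 3 BBMP livers (red, left) and 3 corn oil livers (blue, right), with replicate numbers beside the points and black bars for mean ± SD. Serpina11, Serpina3c and Serpina1 sit lower in all BBMP livers, Serpina4 sits higher, and corn oil 3 stands apart for Serpina4 (6.69) and Serpina3n (10.25).

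Serpina1 is the main plasma inhibitor of neutrophil elastase. Its probe, A_44_P524718, read 9.34, 9.59 and 9.45 in BBMP livers, against 9.66, 9.64 and 9.60 in corn oil livers. The highest BBMP liver lay just under the lowest corn oil liver, so the separation was narrow. Serpina1 averaged 9.46 ± 0.12 in BBMP livers and 9.64 ± 0.03 in corn oil livers (SD, n = 3 each). The difference was -0.18 ± 0.10 (SE), a linear difference of -11.5% with a 95% interval from -25.3% to 4.76%, at a limma adjusted p of 0.558. With quantile normalisation the Serpina1 difference was -0.06 and the groups overlapped, and with normexp background correction it was -0.10.

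For Serpina11 no role is given here. Its brighter probe, A_64_P148136, read 5.21, 5.13 and 4.98 in BBMP livers, against 5.41, 5.42 and 5.32 in corn oil livers. Every BBMP liver was below every corn oil liver, and BBMP 3 was the lowest. Serpina11 averaged 5.11 ± 0.11 in BBMP livers and 5.39 ± 0.05 in corn oil livers (SD, n = 3 each). The difference was -0.28 ± 0.10 (SE), or -17.6% on the linear scale with a 95% interval from -30.4% to -2.39%, at a limma adjusted p of 0.434. The other Serpina11 probe, A_44_P172787, read 3.40, 3.31 and 3.14 in BBMP livers, against 3.60, 3.57 and 3.55 in corn oil livers. That probe gave -0.30 ± 0.10, and once each probe was centred on its own mean the 2 never differed by more than 0.045 on any array.

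Serpina4 was the only gene of the 6 with a positive difference. Kallistatin, its product, is named for its inhibition of tissue kallikrein in humans. Probe A_43_P13410 read 7.35, 7.41 and 7.39 in BBMP livers, against 7.24, 7.22 and 6.69 in corn oil livers. The BBMP livers were tightly grouped and above all corn oil livers, and corn oil 3 lay far below the other corn oil livers. Serpina4 averaged 7.38 ± 0.03 in BBMP livers and 7.05 ± 0.31 in corn oil livers (SD, n = 3 each). The difference was 0.33 ± 0.17 (SE), or 25.9% on the linear scale with a 95% interval from -4.63% to 66.3%, at a limma adjusted p of 0.516. Without corn oil 3 the Serpina4 difference was 0.15, and without corn oil 1 or corn oil 2 it was 0.43 or 0.42.

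Serpina3c, listed in RefSeq also as kallikrein-binding protein and as a growth hormone-regulated protein, was measured by 2 probes. Probe A_43_P11505 read 9.09, 9.08 and 8.77 in BBMP livers, against 9.29, 9.24 and 9.25 in corn oil livers. The corn oil livers were almost level, while BBMP 3 lay well under the other BBMP livers. Serpina3c averaged 8.98 ± 0.18 in BBMP livers and 9.26 ± 0.03 in corn oil livers (SD, n = 3 each). The difference was -0.28 ± 0.12 (SE), or -17.8% on the linear scale with a 95% interval from -32.6% to 0.08%, at a limma adjusted p of 0.463. The other probe, A_64_P110234, gave -0.26 ± 0.13, and after centring the 2 probes differed by at most 0.028 on any array. Without BBMP 3 the Serpina3c difference was -0.18, and with normexp it was -0.11 and the groups overlapped.

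Serpina3n, a Serpina3 copy known to rise in inflammation, showed no separation. Its probe, A_44_P1000653, read 9.83, 9.82 and 9.66 in BBMP livers, against 9.70, 9.72 and 10.25 in corn oil livers. Corn oil 3 was far above every other liver, and the rest lay within a narrow range. Serpina3n averaged 9.77 ± 0.10 in BBMP livers and 9.89 ± 0.31 in corn oil livers (SD, n = 3 each), a difference of -0.12 ± 0.17 (SE; limma adjusted p = 0.82). The sign was set by corn oil 3, since without it the difference was 0.06. The 95% interval ran from -30.8% to 22.5% on the linear scale, so differences of either sign within it are not excluded. Probe sequences are not in the files used here, and probes of one Serpina3 copy may also bind transcripts of Serpina3m, Serpina3l or other copies, so the values of Serpina3c and Serpina3n are uncertain in which copy they count.

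Serpina6 supplies the corticosteroid carrier of plasma. Probe A_44_P121347 read 4.58, 4.87 and 4.91 in BBMP livers, against 4.92, 4.80 and 5.07 in corn oil livers. BBMP 1 was the lowest liver, and the other BBMP livers fell within the corn oil range. Serpina6 averaged 4.79 ± 0.18 in BBMP livers and 4.93 ± 0.14 in corn oil livers (SD, n = 3 each), a difference of -0.14 ± 0.13 (SE; limma adjusted p = 0.729). Without BBMP 1 the difference was -0.03, and without corn oil 3 it was -0.07. Nr3c1, the receptor for the same hormone, chosen after its values were seen, differed by -0.10 ± 0.16 (SE; limma adjusted p = 0.83).

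Serpina12 encodes vaspin, a serpin first known from rat visceral fat. Probe A_44_P288224 was not well above background in 3 of 3 BBMP livers and 3 of 3 corn oil livers, so no difference is given.

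**Figure D2:**
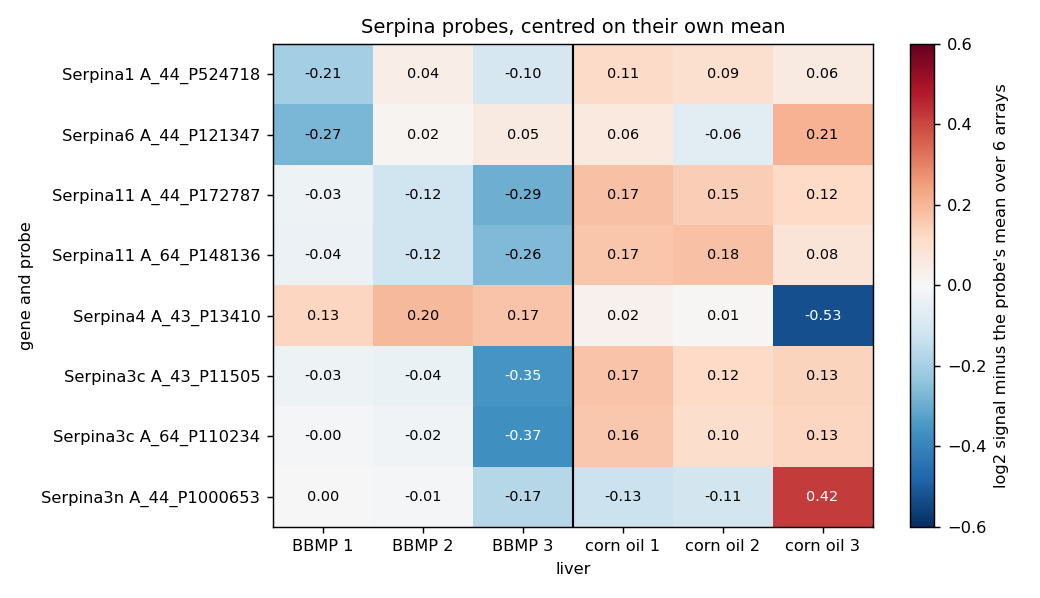
Heat map of the 8 tested Serpina probes (rows) in 3 BBMP and 3 corn oil livers (columns, parted by the black line), coloured and labelled by log2 signal minus the probe's own mean over the 6 arrays. The 2 probes of Serpina11 and the 2 of Serpina3c run together, BBMP 3 is lowest for both genes, and corn oil 3 is high for Serpina3n (0.42) and low for Serpina4 (-0.53).

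The 6 genes did not share one profile over the animals. Likeness was measured as the root mean square difference, over the 6 arrays, between log2 values centred on each gene's mean, so that a smaller value means a closer profile. Serpina3c and Serpina11 were the closest pair of the family, at 0.06, and Serpina1 and Serpina6 stood at 0.12 from each other. Serpina3n was nearest to Serpina6, at 0.19, and Serpina4 was nearest to Serpina1, at 0.31. Among 11110 other named genes, Serpina11 was closest to Mmp2 (0.021) and Mlh3 (0.034), and Serpina3c to C4h12orf60 (0.040) and Ebp (0.045). For Serpina1 these were Slc25a38 (0.016) and Ube2a (0.022), for Serpina6 F8 (0.026) and Hspa13 (0.044), for Serpina4 Slc39a12 (0.023) and Gzmb (0.080), and for Serpina3n Zfp110 (0.056) and Parpbp (0.067). These profiles share all 6 arrays and are given as a description.

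Serpina1, Serpina3c and Serpina3n lay in the brightest band of the array, and the features of that band had a median difference below 0. In bands chosen after the values were seen, 282 features had a mean log2 value of 8 or more, and their median difference was -0.08 with 66% below 0. In the band from 4 to 6, which held Serpina6 and Serpina11, the median over 2037 features was 0.01, and in the band from 6 to 8, which held Serpina4, it was 0.04 over 893. The groups did not overlap for 26.1% (4 to 6), 28.6% (6 to 8) and 23.0% (8 or more) of these features. Over all features, most of them dimmer, this share was 17.9%. None of the 9 Serpina probes was saturated on any array. The brightest Serpina spot was one of Serpina3n, with a raw median signal of 611727, under the saturation limits of 779002 units for BBMP and 779063 units for corn oil arrays. The part of this brightness shift in the Serpina1, Serpina3c and Serpina3n differences was not tested beyond the quantile normalisation, which gave -0.06, -0.21 and -0.02.

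All 8 listed genes lie in one cluster, and its order sets close relatives side by side. In the RefSeq annotation of GRCr8, rat chromosome 6 carries 19 Serpina genes and pseudogenes in a row of 23 annotated genes, from Serpina10 to Serpina3n. Of these, 8 were tested, the 6 described above together with Serpina10 and Serpina5. In this stretch 6 of the 8 had a negative difference, and the 2 with a positive one, Serpina4 and Serpina5, are direct neighbours. Serpina5, which encodes protein C inhibitor and was chosen after its values were seen, averaged 1.01 ± 0.19 in BBMP livers and 0.81 ± 0.44 in corn oil livers (SD, n = 3 each). Its groups overlapped and the difference was 0.20 ± 0.23 (SE; limma adjusted p = 0.77), so the shared sign of the neighbours is a description only. Without corn oil 2 the Serpina5 difference was 0.45, at an unadjusted limma p of 0.0313, and without corn oil 1 it was 0.03.

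**Figure D3:**
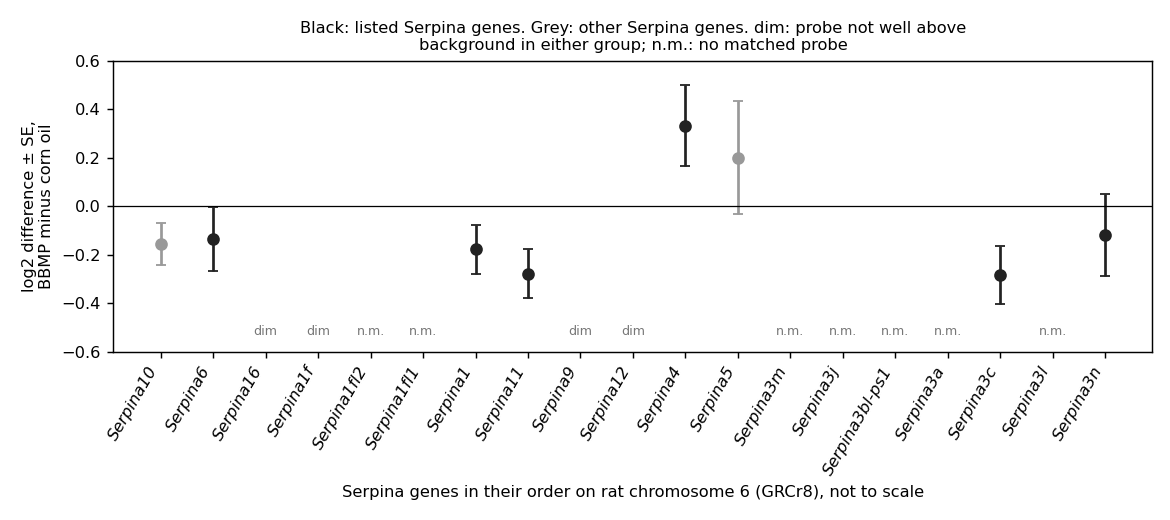
Log2 difference, BBMP minus corn oil, with its SE (y axis) for the Serpina genes in chromosomal order (x axis, not to scale), listed genes in black and other Serpina genes in grey. Serpina4 (0.33) and its neighbour Serpina5 (0.20) are above 0, and the other tested genes are below 0. Genes marked dim were not well above background in either group, and those marked n.m. had no matched probe.

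Outside the list, 19 of 23 further serpin genes had a probe and 14 were tested, with 5 positive and 9 negative differences and a median of -0.11. By limma 0 of the 14 passed the adjusted threshold and 0 had an unadjusted p under 0.05. The groups did not overlap for 3 of the 14, each lower in BBMP livers: Serpina10, Serpinc1 (antithrombin) and Serpinf2 (the plasmin inhibitor alpha-2-antiplasmin). Over all features 17.9% did not overlap, and 9.6% were lower without overlap. A negative difference was found in 52.5% of all features, and an unadjusted limma p under 0.05 in 10.8%. Serpina10, the protein Z-dependent inhibitor of factor X, read 6.24, 6.18 and 6.27 in BBMP livers, against 6.40, 6.35 and 6.42 in corn oil livers, a difference of -0.16 ± 0.09 (SE; limma adjusted p = 0.55). Plasma serpins of clades C, D, F and G were negative in 5 of 5 cases, but only from -0.15 to -0.05. Serpinb8 was next to Serpina10 in order of p, with 0.24 ± 0.15, and 0.39 without corn oil 2 or 0.13 without corn oil 3.

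**Figure D4:**
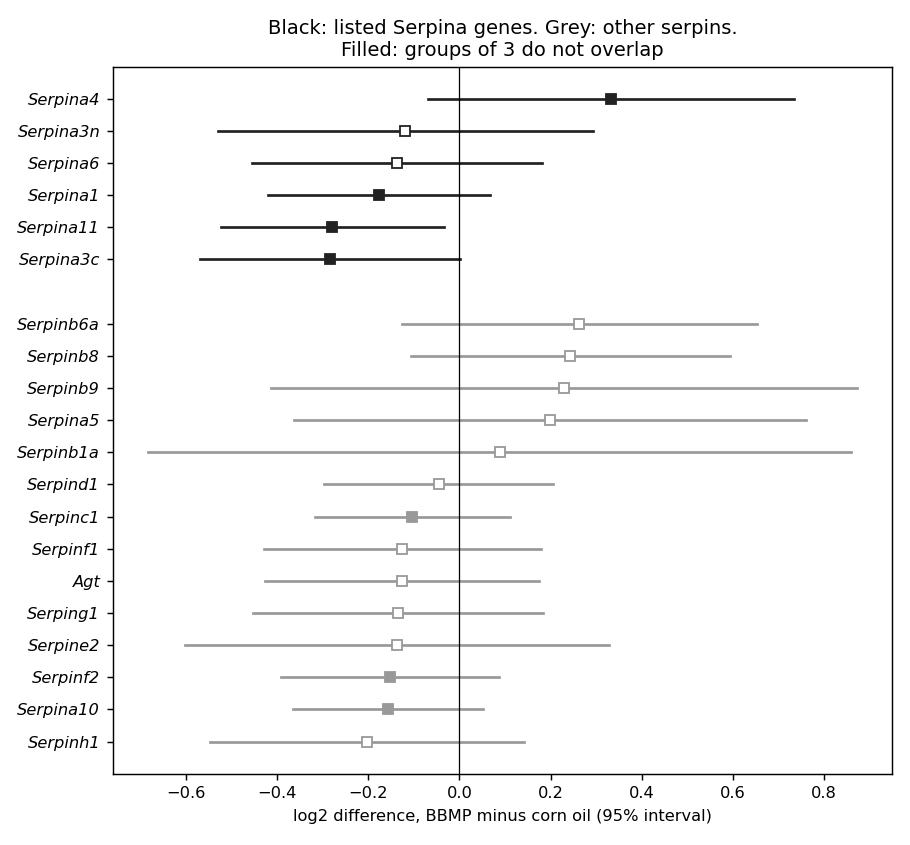
Log2 difference, BBMP minus corn oil, with its 95% interval (x axis) for the 6 tested Serpina genes of the list (black) and 14 other serpins (grey), with filled squares where the groups of 3 do not overlap. The interval of Serpina11 alone excludes 0 without adjustment, and Serpina4 has the highest estimate of the list.

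Inhibitors of other folds, most of them plasma proteins, were examined beside the serpins. Of 11 tested, 8 had a negative difference, where 52.5% of all features did. The groups did not overlap for 5, all lower in BBMP livers, where 17.9% of all features did not overlap and 9.6% were lower. At an unadjusted p under 0.05 stood 2 of the 11, where 10.8% of all features did. These were the inter-alpha-trypsin inhibitor chains Itih4, which read 9.82, 9.78 and 9.74 in BBMP livers, against 10.01, 10.10 and 10.10 in corn oil livers, and Itih3. Their differences were -0.29 ± 0.09 and -0.21 ± 0.09 (SE; limma adjusted p = 0.41 and 0.46). Both are among the 4 of these 11 inhibitors with a mean log2 value of 8 or more. In that band 66% of features were negative and 18.4% were lower without overlap. The part of the band in the counts of these inhibitors was not tested. Kng1, a kininogen chosen after its values were seen, was highest in the same animal as Serpina3n, at 7.05, 6.83 and 7.03 in BBMP livers, against 7.16, 7.06 and 7.55 in corn oil livers. Without corn oil 3 the Kng1 difference was -0.14, against -0.29 with it.

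Among a list of proteases, with the glucocorticoid receptor gene Nr3c1 added, 11 genes were tested. Of these, 10 had a negative difference (52.5% over all features), and 1 had an unadjusted limma p under 0.05 (10.8% over all features). The negative ones include F9 and F10, at only -0.004 and -0.002. Nr3c1 is also in the list of transcription factors below. The gene with the unadjusted p under 0.05 was F12, the contact-phase coagulation factor, with -0.26 ± 0.09 (SE; limma adjusted p = 0.42). Elane, the neutrophil elastase restrained by Serpina1, and Klk1, a tissue kallikrein, were not well above background in all 3 livers of either group. Klkb1, plasma kallikrein and chosen after its values were seen, read 4.16, 5.30 and 5.50 in BBMP livers, against 5.68, 5.69 and 5.81 in corn oil livers, with BBMP 1 far below the rest. Its difference was -0.74, and -0.32 without BBMP 1.

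Acute phase genes, which mark the liver's answer to inflammation, had 17 negative differences among 21 tested, with a median of -0.18. The list also holds genes whose level falls in inflammation, such as Alb and Ttr. Its counts and medians therefore do not give one direction of that answer. Of the 21, 5 had an unadjusted limma p under 0.05, 8 did not overlap between the groups, and 0 passed the adjusted threshold, where 10.8% and 17.9% of all features met the first 2 criteria. Of these genes 15 had a mean log2 value of 8 or more, the band in which 66% of features were negative, the median was -0.08 and 18.4% were lower without overlap. The part of that band in the counts was not tested. Beside Itih3 and Itih4 the 5 held the fibrinogen chains Fga and Fgb and the haem carrier Hpx, the last 2 with -0.25 ± 0.10 each. The remaining fibrinogen chain, Fgg, differed by only -0.02 ± 0.12 (SE), with overlapping groups. The median of the list, with each gene centred on its mean, was -0.08, -0.02 and -0.12 in BBMP livers, against 0.06, 0.10 and 0.12 in corn oil livers, so every BBMP liver had the lower median. Itih3 and Itih4 are also in the list of plasma inhibitors. Alb, itself one of the 21 and chosen after its values were seen, differed by 0.05 ± 0.11.

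A list of 26 transcription factors, hormone and cytokine signalling genes and some of their targets, such as Igf1, Igfals and Hspa5, had 20 negative differences and a median of -0.20, and 0 passed the adjusted threshold. Hnf4a, whose product maintains hepatocyte transcription and which was chosen after its values were seen, differed by 0.04 ± 0.12 (SE; limma adjusted p = 0.92). Unadjusted p was under 0.05 for 6, where 10.8% of all features had such a p, all with negative differences: Foxa2, Igfals, Cish, Socs2, Socs3 and Prlr. Cish, Socs2 and Socs3, feedback inhibitors of cytokine and growth hormone signalling, differed by -2.21 ± 0.78, -1.55 ± 0.64 and -0.58 ± 0.10, and the prolactin receptor gene Prlr by -2.32 ± 0.49. The groups overlapped for Cish, with BBMP 1 at 0.98 above corn oil 1 at 0.90, and for Socs2, with BBMP 3 at 0.92 above corn oil 1 at 0.46. Foxa2, a pioneer factor of liver genes, read 2.42, 1.25 and 2.52 in BBMP livers, against 2.62, 3.94 and 4.01 in corn oil livers, a difference of -1.46 ± 0.49 (SE; limma adjusted p = 0.42). Igfals, a growth hormone target that carries IGF1 in plasma, read 3.16, 3.06 and 3.24 in BBMP livers, against 3.35, 4.24 and 3.60 in corn oil livers, a difference of -0.58 ± 0.23 (SE; limma adjusted p = 0.46). Corn oil 2 was the highest, and without it the Igfals difference was -0.32.

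Fewer cells of a type and less RNA per cell cannot be told apart in whole liver. The median centred level of the 6 hepatocyte markers ranged from -0.15 to 0.08 in BBMP livers and from -0.03 to 0.07 in corn oil livers. Markers of stellate cells and fibroblasts were the one cell-type list of 7 whose medians did not overlap, from -0.26 to -0.06 in BBMP livers and from 0.00 to 0.25 in corn oil livers. Of these markers 5 of 6 were negative, where 52.5% of all features were. The positive one, Des, was higher in every BBMP liver than in every corn oil liver, by 0.18 ± 0.10 (SE). The part of the stellate cell and fibroblast markers in the Serpina differences was not tested. Macrophage markers were positive in 6 of 6 cases with overlapping medians, from -0.28 to 0.44 in BBMP livers and from -0.45 to 0.31 in corn oil livers. Of the neutrophil markers, Elane, Csf3r and Ngp were not well above background in all 3 livers of either group, and the 2 tested had overlapping medians.

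**Figure D5:**
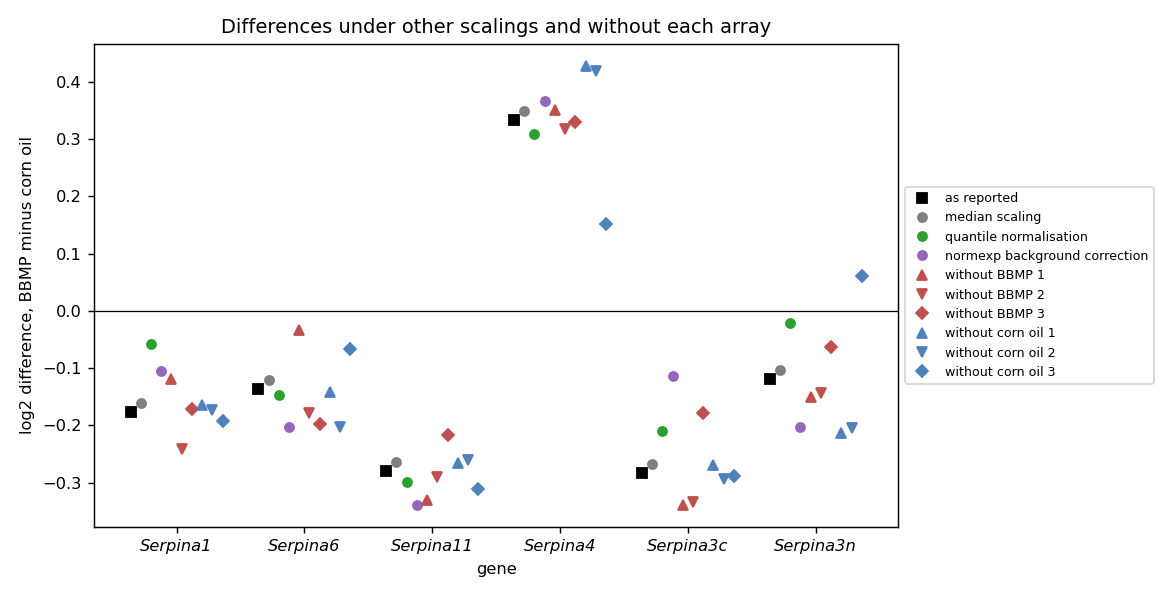
Log2 difference, BBMP minus corn oil (y axis), of the 6 tested Serpina genes (x axis) as reported (black squares), under 2 other scalings and normexp background correction (circles), and without each of the 6 arrays (triangles and diamonds). Serpina11 stays between -0.34 and -0.22 and Serpina4 between 0.15 and 0.43, while Serpina3n crosses 0 without corn oil 3.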

How the data were processed

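Liver RNA was labelled with Cy3 and hybridised to 1-colour Agilent arrays, per the labels' protocols. Per the file headers the arrays, of design 035170, were read with Feature Extraction 10.7.1.1, and version 10.7 stands in the submitters' processing notes. Spot brightness was deposited as linear intensity from which the scanner software had subtracted background, with no normalisation across arrays. A value table from the authors holds intensity too: each column is the processed signal divided by 1 constant per array (column medians 0.0971 to 0.1005).

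Control spots and 84 spike-in probes were left out, which left 61573 probes, of which 27460 (44.6%) were named by unversioned accession in RefSeq (GRCr8). Each processed signal was divided by the 75th percentile of its array and put on the log2 scale. Spots marked as outliers, at most 21 per array and none of them a Serpina spot, were left out. Testing required a probe to be well above background in all 3 livers of at least 1 group, and a gene was represented by its brightest such probe. Groups, taken from the treatment labels, were set against each other over 28112 features in R 4.3.3 by limma 3.58.1, with Benjamini-Hochberg adjustment, two-sided. The labels do not say whether the animals were housed or handled separately, so p-values measure the spread between these samples. The fit was tested on simulated data. Python 3.11.15 served for the tables, through pandas 2.3.3 and numpy 2.4.6.

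The Serpina genes, the other gene lists and the motifs were chosen with earlier results of these data known. Named genes were the listed Serpina genes, list members with an unadjusted p under 0.05 (or the 2 with the smallest p), and the 2 genes closest in profile to each Serpina gene; other genes were picked with their values in view. Alternatives tried were normexp (planned on the mean spot signal, run on the median), quantile and median scaling, other filters and probe rules, trend and robust moderation, an unmoderated test, the value table, the replicate block and leaving out each array.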

Additional observations from a re-analysis of the deposited data

How the results depend on the processing

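Of 102 differences of the 6 Serpina genes under 17 alternatives, 101 kept their direction and stayed on the same side of the adjusted threshold, which none passed as reported. The exception was Serpina3n, at 0.061 without corn oil 3. Changing only the filter, the moderation, the test or the replicate block, or fitting every probe, refits the same values of each Serpina gene. Those alternatives could not turn a direction, so part of the 101 was fixed in advance. Leaving out 1 array gave -0.24 to -0.12 for Serpina1, -0.34 to -0.18 for Serpina3c, -0.21 to 0.06 for Serpina3n, 0.15 to 0.43 for Serpina4, -0.20 to -0.03 for Serpina6 and -0.33 to -0.22 for Serpina11. The number of Serpina genes with an unadjusted p under 0.05, 1 as reported, was 2 with normexp (Serpina11 and Serpina4), 2 with the filter on all 6 arrays and 2 with trend and robust moderation (Serpina11 and Serpina3c each time), 0 with no filter, and 0 to 1 without 1 array: 0 without BBMP 2, BBMP 3, corn oil 1 or corn oil 2. Groups did not overlap for 3 to 5 Serpina genes: 3 with normexp or quantile normalisation, and 5 without corn oil 2. Of 28112 features, 5018 did not overlap as reported, 4957 with normexp and 5114 with quantile normalisation. Without 1 array the number of features rose to between 6829 and 8856, and it was 6829 without corn oil 2. Among other serpins the count of 0 was 1 with the trend and 1 with the unmoderated test (Serpina10 both times), and 0 to 2 without 1 array: Serpina5 and Serpinb8 without corn oil 2, and Serpinb9 without BBMP 2. Over all features the 2 past the adjusted threshold were 0 with normexp, with the filter on all 6 arrays, with the unmoderated test and with the replicate block, 1 with no filter, and 0 to 4 without 1 array; the 3035 at an unadjusted p under 0.05 were 1934 to 3216 without 1 array and 2034 (unmoderated test) to 3924 (every probe) under the other alternatives. The stricter filter tests fewer features (26581), while every probe (37644) and no filter (45793) test more, so these counts have unlike totals. Beyond this the cause was not tested. Deviations from the group means correlated at 0.095, 0.015 and 0.065 between animals of one number, and at -0.097 to 0.032 between animals of unlike numbers. The labels do not say that the numbers pair animals, so they are not taken as pairs. Under the replicate block Serpina11 gave an unadjusted limma p of 0.039 and 0 Serpina genes passed the adjusted threshold. Signal over background limits Serpina12 to no value.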

Other observations

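The intracellular serpins of clade B, which protect cells from their own proteases, were positive in 4 of 4 tested genes, from 0.09 to 0.26, unlike the 5 plasma serpins of clades C, D, F and G, from -0.15 to -0.05. The smallest unadjusted limma p among the 4 was 0.142, and all had overlapping groups. The difference between the 2 sets was noticed in the values and was not tested. Outside these sets Serpine2 and Serpinh1, of clades E and H, differed by -0.14 and -0.20. Within clade B the sign of Serpinb1a depended on single arrays. It was -0.24 without BBMP 3 and -0.05 without corn oil 1, and above 0 without any other array. Spink1, a small trypsin inhibitor of another family, varied widely among the corn oil livers: it read 0.20, 0.74 and -0.21 in BBMP livers, against 1.30, -1.91 and -1.55 in corn oil livers, so that 1 corn oil liver lay above every other liver. Its difference was 0.96, and 1.97 without corn oil 1 or 0.37 without corn oil 2.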
